A study of Homo sapiens with 10 samples.

Results

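The genes described are 10 that mark enteroendocrine cells, with the open chromatin around them in the human colorectal cancer line DLD-1, long established in culture. They are the hormone genes NTS, CCK, PYY, GCG and SST, the granule protein gene CHGA, and the transcription factor genes NEUROG3, NEUROD1, INSM1 and PAX4. These 10 of 19970 protein-coding genes were chosen by name, from a wider enteroendocrine list whose regions lost after auxin, NTS among them, had already been counted in these data. The auxin comparison at these genes is therefore given as a description. A peak belonged to a gene when it lay inside the RefSeq gene body or within 50 kb of either end. Overlapping peaks of the 6 degron libraries were merged into 120452 regions, of which 74 belonged to the 10 genes. A merged region was counted when any part of it lay within that distance. The same merge over the 4 WT and KO libraries gave 157584 regions, of which 89 belonged to them.

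ATAC-seq, in which a transposase cuts and tags open chromatin, was used on 5 groups of 2 libraries, all DLD-1. A line in which GATA6, a zinc finger factor of the gut epithelium, carries the IAA7 degron tag gave 3 groups. They are AID_ctrl, whose treatment label names auxin but whose time is 0 h and whose title says control, and which was read as untreated; AID_aux, 12 h of auxin (500 µM IAA); and AID_wash, taken after the auxin was removed, where the time is given as 1 without a unit. The degron cells came from clones whose number the labels do not give. The other groups were WT, unedited cells, and KO, cells with GATA6 disrupted by CRISPR/Cas9. The labels do not say whether the replicates were separate cultures, so the spread between them may be technical. No test was run: the lists carry no read counts and a region without a peak has no value. Counts at the 10 genes are instead read against the share of all regions in the same state. In a bulk sample, fewer cells with an open region and a less open region in each cell cannot be told apart.

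Enteroendocrine cells are scattered hormone-secreting cells of the gut epithelium. They arise from crypt progenitors in which the basic helix-loop-helix factor NEUROG3 is switched on for a short time, followed by NEUROD1, INSM1, PAX4 and other factors that set the hormones a cell makes. Their peptides are stored in dense-core granules, of which chromogranin A, the product of CHGA, is a main protein, and are released towards the blood and nearby nerves.

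Of the 10 genes, 3 of the 9 present in the RefSeq promoter table (GRCh38.p14) held the letters AGATAA or TGATAA, the core that GATA factors recognise, in the 250 bases before a start site, on either strand. Over all 15811 genes of that table the share was 14.4%. The promoters of these 3 genes are printed because they let a reader set the called regions at the start sites beside the letters, with the matches in capitals and each sequence read along the gene's own strand.
NTS: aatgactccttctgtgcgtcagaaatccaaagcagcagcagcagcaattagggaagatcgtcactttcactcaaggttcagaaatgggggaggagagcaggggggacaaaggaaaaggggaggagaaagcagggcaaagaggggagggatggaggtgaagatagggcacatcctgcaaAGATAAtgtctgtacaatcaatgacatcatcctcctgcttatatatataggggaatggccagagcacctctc
NEUROG3: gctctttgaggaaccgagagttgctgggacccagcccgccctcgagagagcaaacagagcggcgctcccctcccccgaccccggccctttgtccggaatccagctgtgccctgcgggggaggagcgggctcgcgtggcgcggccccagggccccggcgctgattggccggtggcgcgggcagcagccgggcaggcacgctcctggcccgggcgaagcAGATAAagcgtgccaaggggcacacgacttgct
PAX4: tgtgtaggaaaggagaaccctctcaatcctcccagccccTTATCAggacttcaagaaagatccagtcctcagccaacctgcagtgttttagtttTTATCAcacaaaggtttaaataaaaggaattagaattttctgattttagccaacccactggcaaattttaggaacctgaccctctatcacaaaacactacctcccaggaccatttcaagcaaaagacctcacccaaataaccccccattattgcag
The NTS sequence is chr12:85874045-85874294 on the plus strand, and its AGATAA begins 72 bases before the start site. The NEUROG3 sequence is chr10:69573423-69573672 on the minus strand, with AGATAA beginning 33 bases before the start site. The PAX4 sequence is chr7:127616028-127616277 on the minus strand and lies before the inner of its 2 start sites. Its capitals are TTATCA, which is TGATAA on the opposite strand, and the first of the 2 begins 211 bases before the start site. A match of letters is a description and not a binding site. Of these 3 promoters, the NTS window was the only one overlapped by a called peak in any library, although the other 2 hold the same core.

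Other letters were searched in the same 250 bases on both strands. The E-box CAGATG, a form bound by basic helix-loop-helix factors, was found before GCG, and lay before 13.0% of the 15811 genes of the table. The E-box CAGCTG was found before CCK and NEUROG3, against 17.5% of genes. TATAAA, the TATA box core, was found before CCK, GCG and SST, against 11.9%. The AP-1 letters TGANTCA were found before PYY, against 7.09%, and the forkhead letters TGTTTAC before none of the 9, against 3.25%.

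Few start sites of these genes lay under a called peak. The promoter window, 250 bases before to 50 after a start site, was overlapped by a peak at 1 of the 9 genes in AID_ctrl replicates 1 and 2, and at 0 of 9 in the other 8 libraries. That gene was NTS. Over all 15811 genes the share with a peak there was 64.1% and 64.0% in AID_ctrl, 64.5% and 63.8% in AID_aux, and 63.3% and 64.2% in AID_wash. It was 57.5% and 55.1% in WT, and 57.1% and 54.8% in KO. INSM1 is not in the promoter table.

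**Figure D1:**
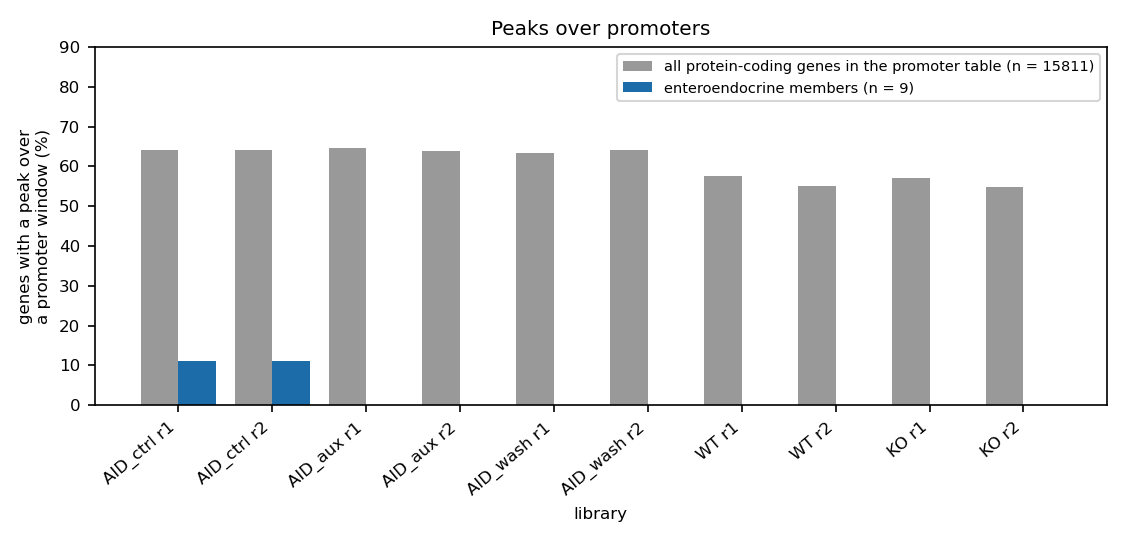
Share of genes whose promoter window is overlapped by a called peak, in percent, for each of the 10 libraries, for all 15811 genes and for the 9 enteroendocrine genes in the promoter table. The bars for all genes stand between 54.8% and 64.5%, and the enteroendocrine bars are above 0 only in the AID_ctrl libraries, where NTS is the gene.

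The nearest region to a start site lay further off at the other genes. It was 385 bp from the inner PAX4 start site, 912 bp from NEUROG3, 989 bp from CHGA, 1086 bp from GCG, 1821 bp from the outer PYY start site and 2691 bp from SST. Among degron libraries, only AID_aux replicate 1 called the NEUROG3 and SST regions. At NEUROD1 it was 19765 bp away, and at CCK 7065 bp away in the degron libraries, although a region called in KO lay 877 bp from the inner CCK start site. Within 1000 bp of either gene end, 58.4% of 19970 protein-coding genes had a peak in every one of the 10 libraries, and 25.1% had one in none. None of the 10 genes had one in every library, and 7 had one in none: NEUROD1, INSM1, CHGA, PYY, GCG, SST and PAX4. This measure runs from the ends of the gene body, not from the start sites. The CHGA start site used above (92923150) and the inner PAX4 start site (127616027) lie inside the body. The regions 989 and 385 bp from them are therefore not counted here.

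The same measure was taken for other lists. Of 12 colon epithelium genes, which this line should hold open, 9 were called in every library (among them EPCAM and CDX2) and 0 in none. Of 6 blood genes, 3 were called in every library, of 6 neuron genes 3, and of 6 fibroblast or endothelium genes 1. Genes of other tissues were thus also called at their ends, among them SPI1 and CD14 of blood and SNAP25 of neurons. Of 40 other enteroendocrine genes, 12 were called at a gene end in every library and 21 in none. The 12 were the factors FEV, ISL1, ETV1 and RFX3, the granule proteins SCG2, SCG5, CHGB and VGF, the peptide-processing enzyme CPE, the monoamine transporter SLC18A1, the vesicle protein SYP, and CRYBA2. CHGB, which codes for a second chromogranin, was in this group and CHGA was not.

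**Figure D2:**
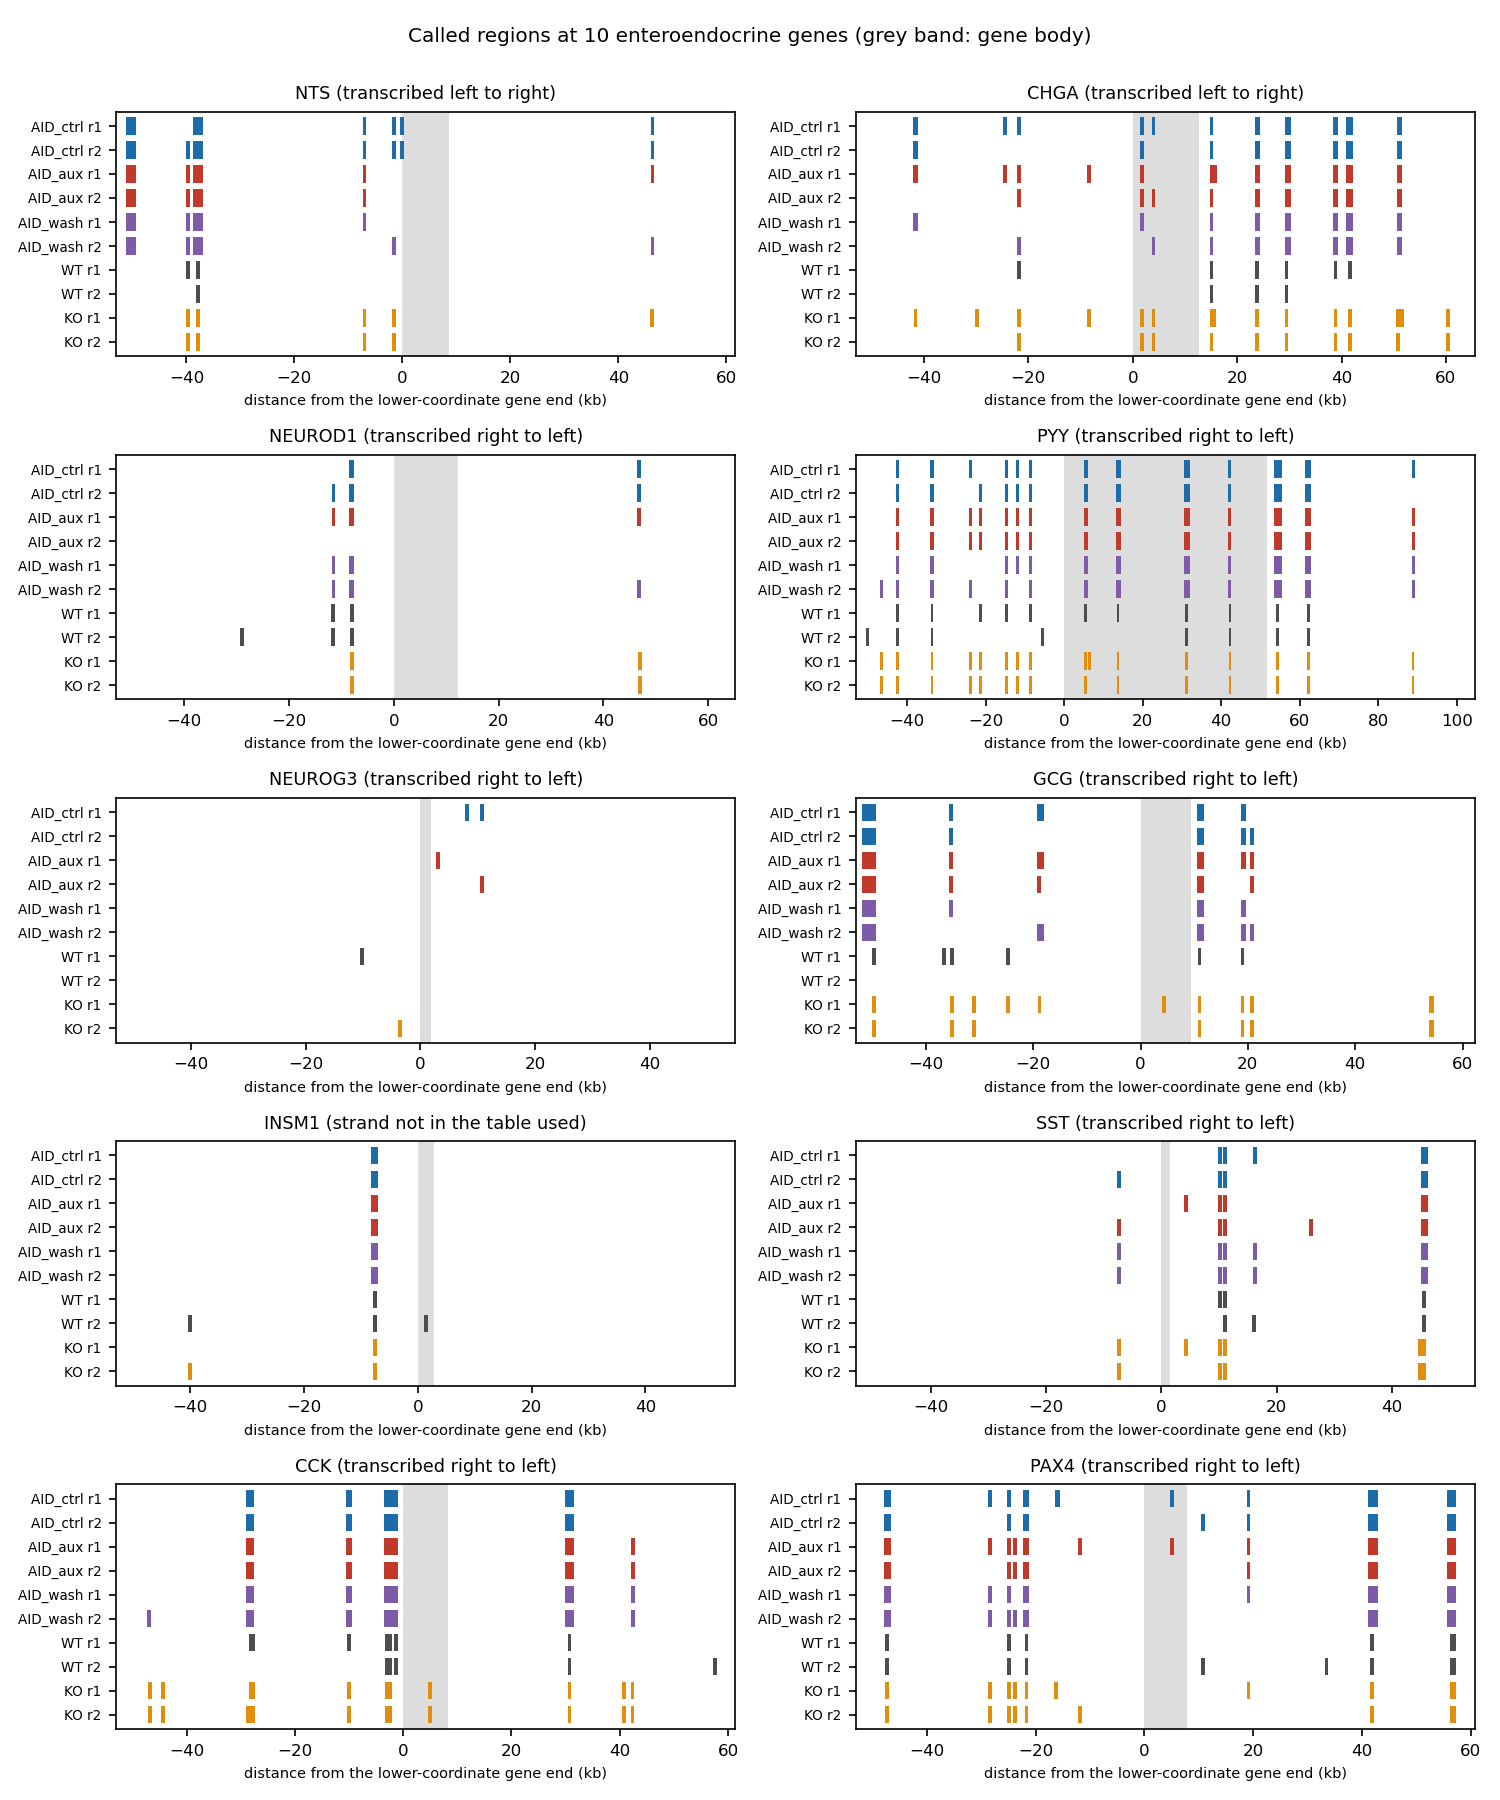
Called regions around each of the 10 genes in the 10 libraries, 1 row a library, against the distance in kb from the gene end of lower coordinate, with the gene body in grey and bars drawn at least 0.7 kb wide and peaks wholly beyond 50 kb not drawn. PYY carries the most bars in every row, and NEUROG3 carries few, none of them in more than 2 libraries.

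Regions were unevenly spread over the 10 genes. Scaled to the length of each window, the density ran from 0.972 regions per 100 kb at INSM1 to 11.5 at CHGA, with a median of 6.42, against a median of 6.8 over all protein-coding genes (quartiles 4.0 and 9.97). Thus 6 of the 10 genes lay below the median of all. Of the 74 degron regions, 8 lay inside or across a member's own body and 27 in the body of another protein-coding gene, such as ITPK1 beside CHGA or SND1 beside PAX4. Every one of the 6 degron libraries called 33 of the 74 (44.6%, against 51.6% of all regions). All 10 libraries called 22 of them (29.7%, against 37.6%), spread over 8 of the 10 genes. The exceptions were NEUROD1 and NEUROG3.

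The 6 degron libraries called 58, 51, 62, 51, 48 and 54 of the 74 regions, in the order AID_ctrl, AID_aux and AID_wash, replicate 1 before 2. Replicates of a group did not always call the same regions. In AID_ctrl, 45 regions were called by both replicates and 19 by only 1 of them (13 and 6). The share called by both was 70.3% of the regions that either called, against 77.3% over all regions. In AID_aux it was 71.2% (against 75.6%), and in AID_wash 70.0% (against 73.7%). In KO it was 77.9%, the same as over all regions, and in WT 45.1%, against 52.7%.

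**Figure D3:**
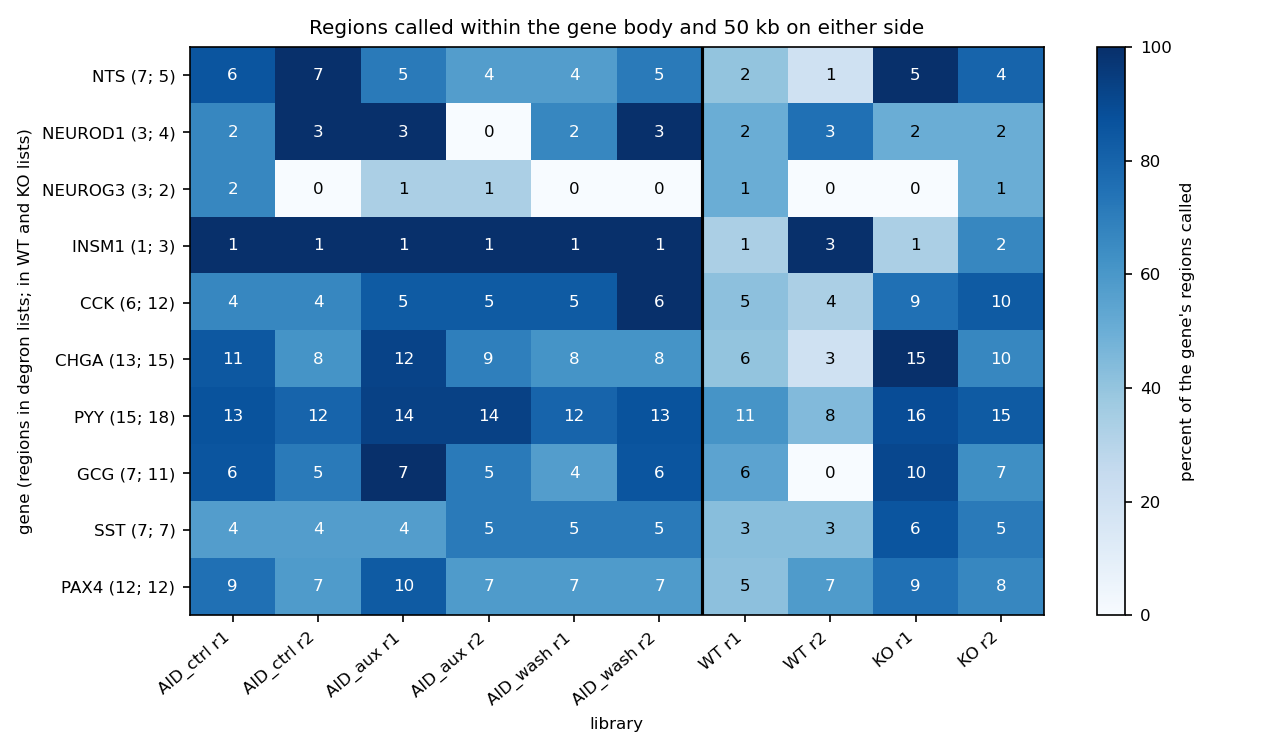
Number of regions called at each gene (rows) in each library (columns), with the colour giving the percent of that gene's regions. Columns of a group differ from each other, and the WT columns are mostly paler, with 42 and 32 of 89 regions called, against 73 and 64 in KO.

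After auxin, 2 of the 72 regions called in AID_ctrl or AID_aux at these genes were lost, 2 were gained and 38 were retained. Lost means called by both AID_ctrl libraries and neither AID_aux library, gained is the reverse, and retained is called by all 4. The shares were 2.78% lost, 2.78% gained and 52.8% retained, against 2.36%, 2.58% and 59.6% of all 115431 regions. Both lost regions were at NTS, and the gained regions were 1 at CCK and 1 at PAX4. The lost and gained shares lie near those of all regions. Leaving out AID_aux replicate 1 gave 7 lost regions and AID_ctrl replicate 2 gave 5, while leaving out AID_aux replicate 2, AID_ctrl replicate 1 or AID_ctrl replicate 2 gave 7, 6 and 5 gained. With only peaks of a −log10 p-value of at least 10, 0 regions were lost.

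After the washout, measured against AID_aux, 1 of 70 regions was lost and 1 gained (1.43% each), against 3.48% and 1.21% of all regions. Retained were 36 regions (51.4%), against 57.4%. Against AID_ctrl, 1 of 68 regions was lost and 1 gained (1.47% each), against 2.67% and 0.685%, with 35 retained (51.5%, against 60.0%). The region lost against AID_ctrl was the one across the NTS start site, and the region gained was the CCK region already gained after auxin. Without AID_aux replicate 2 the washout lost 8 regions against AID_aux, and without AID_wash replicate 1 it lost 7 against AID_ctrl. The AID_ctrl and AID_aux libraries serve in 2 comparisons each, as do the AID_wash libraries, so the comparisons are not independent.

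**Figure D4:**
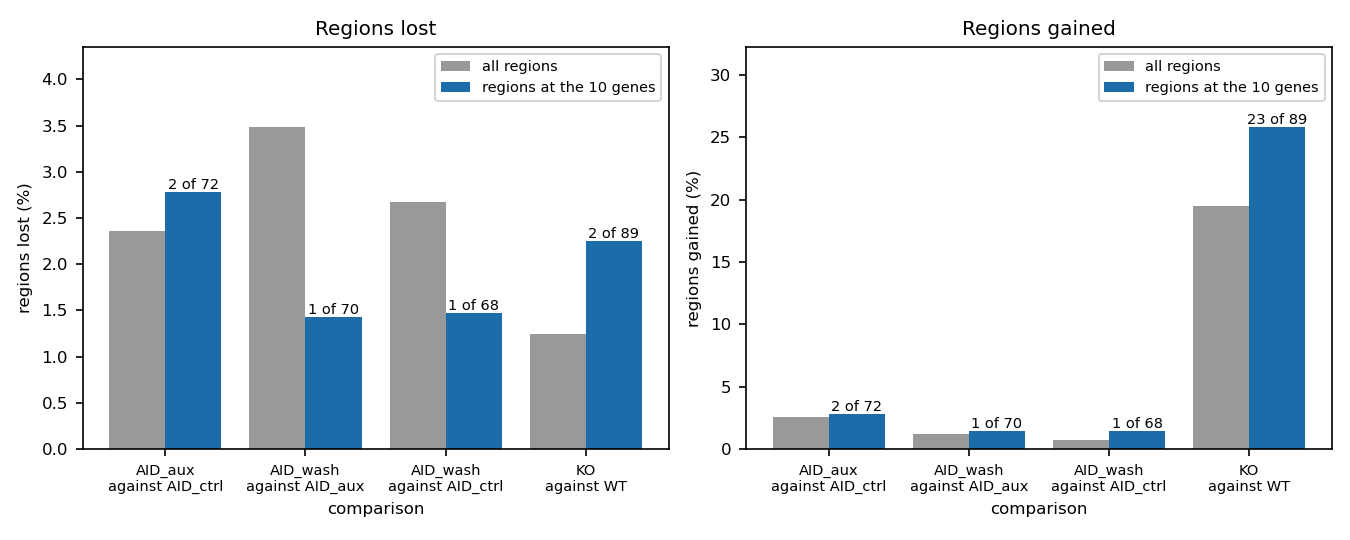
Percent of regions lost and gained in the 4 comparisons, for all regions and for regions at the 10 genes. The bars of the 10 genes stand on counts of 1 or 2, except the gains in KO (23 of 89 regions), so their heights move by steps of more than 1 percentage point.

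NTS, on chromosome 12 (85874295 to 85882992, plus strand, gene ID 4922), encodes the peptide neurotensin. It had 7 degron regions. Enrichment, the authors' own fold value for each peak, is given for every library and used only to describe. The region across the start site, chr12:85873955-85874547, had an enrichment of 4.02 and 4.48 in the AID_ctrl replicates and was called in no AID_aux, AID_wash, WT or KO library. It is the only region among the 74 that covers a start site. It was a weak peak: the authors' −log10 p-values were 5.65 and 6.38, where the lowest value kept in their lists was 5.0. By −log10 p it lay at the 7.0 and 13.9 percentile of all peaks in those libraries.

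The second region lost, chr12:85872575-85872809, lies 1486 bp upstream of the gene. Its enrichment was 4.75 and 4.48 in AID_ctrl, it was called in neither AID_aux library, and it came back at 3.85 in AID_wash replicate 2 only. Both KO libraries called it and neither WT library did. The direction of the calls was thus opposite in the 2 pairs: 2 fewer libraries with auxin, and 2 more with the knockout. Its −log10 p-values were 7.38, 6.38 and 5.61.

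The other NTS regions were called more widely. A region 6802 bp upstream, chr12:85867062-85867493, had enrichments of 5.12 and 7.73 in AID_ctrl, 7.06 and 4.37 in AID_aux, and 5.05 in AID_wash replicate 1, and was called in both KO and no WT library. A region 36962 bp upstream, chr12:85835442-85837333, was called in all 10 libraries, at 8.05 and 7.40, 7.57 and 6.74, and 5.41 and 7.92. The strongest, here and below the region with the highest enrichment in any single library, was chr12:85823073-85824924, 49371 bp upstream in the body of RASSF9. It was also called in all 10 libraries (in WT and KO only on the side beyond 50 kb), at 9.14 and 13.13, 11.04 and 12.28, and 9.81 and 10.34. The remaining 2 were called in fewer. The region 39577 bp upstream, chr12:85834441-85834718, was not called in AID_ctrl replicate 1, and had enrichments of 3.14 in AID_ctrl replicate 2, 5.52 and 4.64 in AID_aux, and 3.45 and 2.91 in AID_wash. Its −log10 p-values were 5.79 in AID_ctrl replicate 2 and 19.49 and 11.28 in AID_aux, so its AID_aux peaks passed the threshold by more than the peaks of either lost region did in AID_ctrl. When only peaks with a −log10 p-value of at least 10 were kept, NTS had 0 lost regions and 1 gained after auxin, in place of 2 and 0. The region 37424 bp downstream was called at 4.75 and 4.07 in AID_ctrl, 4.71 in AID_aux replicate 1 and 3.85 in AID_wash replicate 2.

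**Figure D5:**
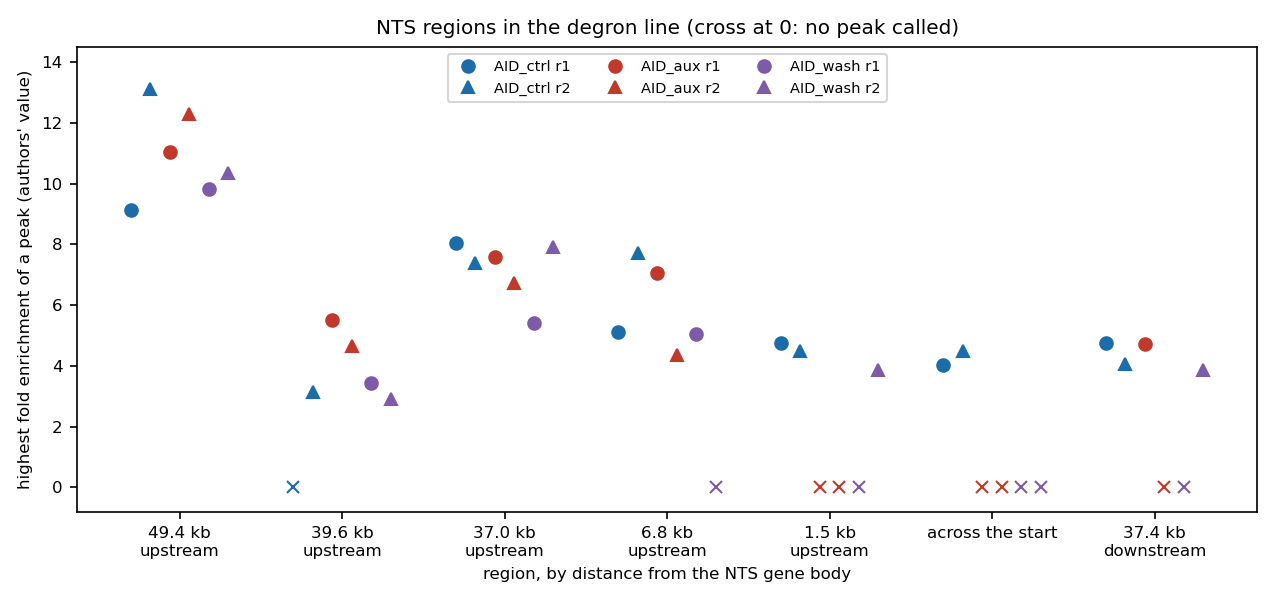
Enrichment at the 7 NTS regions in the 6 degron libraries, in the authors' fold units, with a cross at 0 where a library called no peak. The 2 regions nearest the start carry points between 3.85 and 4.75 and only crosses in AID_aux, and the region 49371 bp upstream carries points from 9.14 to 13.13.

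CCK (chromosome 3, 42257826 to 42266185, minus strand) encodes cholecystokinin, which stimulates the gallbladder and pancreas. Its strongest region, 21601 bp upstream at chr3:42287786-42289343, had enrichments of 13.08 and 16.30 in AID_ctrl, 16.83 and 16.98 in AID_aux, and 16.90 and 13.93 in AID_wash. By −log10 p it lay between the 98.3 and 99.9 percentile of each library's peaks. It was called in all 10 libraries. The region nearest a gene end, 944 bp downstream, was also called in all 10, at 6.16 and 6.77, 6.12 and 6.71, and 7.51 and 5.0. In KO it was called only in its further part, 2033 bp or more from the gene. The window 994 bp away was called in both WT and neither KO library. The region gained after auxin, 33891 bp upstream at chr3:42300076-42300462, was called in no AID_ctrl library, at 4.37 and 4.37 in AID_aux, and at 4.21 and 4.17 in AID_wash. It was called in both KO libraries and no WT library.

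PYY (chromosome 17, 43952733 to 44004445, minus strand) encodes peptide YY, a hormone of the lower gut that slows gastric emptying. It had 15 degron regions, of which 10 were called in every degron library, 4 of them inside the gene body. The strongest, 33262 bp downstream, ran from 10.01 to 14.30 over the 6 libraries and was called in all 10. Other regions were above it in some libraries. A region 9726 bp upstream in TMEM101 was higher in AID_ctrl replicate 2 (11.09) and in AID_wash (11.36 and 10.13). A region inside the gene body, chr17:43983274-43984721, was the highest in AID_ctrl replicate 2 (11.25) and AID_wash replicate 1 (11.72). In AID_wash replicate 2 the highest was a region 8241 bp downstream in PPY (12.34). The region nearest the upstream end, 1821 bp away in NAGS, ran from 6.34 to 8.68 and was also called in all 10. A region 21090 bp downstream, chr17:43931073-43931643, was lost after the washout: it was called at 4.03 and 4.80 in AID_aux, at 5.93 in AID_ctrl replicate 2, and in no AID_wash library.

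GCG (chromosome 2, 162142882 to 162152247, minus strand) encodes proglucagon, the source of glucagon and, in the gut, of GLP-1. No region in its window was lost or gained in the degron comparisons. The region nearest the gene, 1086 bp upstream at chr2:162153333-162154642, was called at 9.39 and 9.77 in AID_ctrl, 9.75 and 7.87 in AID_aux, and 6.73 and 7.05 in AID_wash. The region of highest enrichment, chr2:162090966-162093597, lies across the 50 kb limit, with its nearer end 49285 bp downstream. It was called in all 10 libraries (in WT replicate 2 only on the side beyond 50 kb), at 8.57 and 6.79, 8.83 and 9.48, and 12.50 and 7.41. Those values came from peaks that did not overlap the KO window chr2:162092958-162093581, inside the limit. Peaks over that window had 4.37 and 4.36 in AID_ctrl, 3.59 and 3.64 in AID_aux, and 4.25 in AID_wash replicate 1 only. Among GCG regions wholly inside the limit, the one 1086 bp upstream had the highest enrichment. The strongest NTS region also lies across the limit.

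SST (chromosome 3, 187668912 to 187670394, minus strand) encodes somatostatin, which inhibits the release of other gut hormones. Its strongest region, 43669 bp upstream in RTP2, was called in all 10 libraries, at 10.44 and 11.13, 14.63 and 9.77, and 7.99 and 8.09. A second region, 9276 bp upstream, was called in all 10 libraries, at 12.50 and 13.29, 12.69 and 9.82, and 9.40 and 11.71. Only its AID_aux replicate 1 value makes the first region the strongest: the second was higher in the other 5 libraries. The region gained after the washout against AID_aux, 14478 bp upstream at chr3:187684872-187685369, was called at 5.48 in AID_ctrl replicate 1 and at 5.05 and 4.81 in AID_wash. WT replicate 2 also called it. The region nearest the gene, 2691 bp upstream, was called at 4.37 in AID_aux replicate 1, in no other degron library, and in KO replicate 1.

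CHGA (chromosome 14, 92922664 to 92935285, plus strand) encodes chromogranin A, the granule protein used to mark endocrine cells. It had 13 degron regions, 7 of them in ITPK1, and none was lost or gained. The strongest, 2138 bp downstream in ITPK1, was called in all 10 libraries, at 14.00 and 12.89, 14.57 and 12.26, and 8.98 and 12.57. In AID_wash replicate 1 the ITPK1 regions 10721 and 16489 bp downstream were higher, at 10.76 and 13.79. Inside the gene body, chr14:92924139-92924914 was called at 4.68 and 4.92, 3.52 and 4.17, and 5.09 in AID_wash replicate 1 only. A second, chr14:92926441-92926901, was called in 3 degron libraries at 3.42 to 4.89. Both KO libraries called each of these 2 regions, and no WT library called either.

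NEUROD1 (chromosome 2, 181668295 to 181680517, minus strand) encodes a basic helix-loop-helix factor acting downstream of NEUROG3. It had 3 regions, none called in AID_aux replicate 2. The strongest, by its value in AID_ctrl replicate 1 alone, lay 34206 bp upstream and was called at 8.65 and 4.88 in AID_ctrl, 6.05 in AID_aux replicate 1 and 6.41 in AID_wash replicate 2. The region 7543 bp downstream was called at 7.24 and 7.42 in AID_ctrl, 5.26 in AID_aux replicate 1, and 5.76 and 7.15 in AID_wash, above the first in AID_ctrl replicate 2 and AID_wash replicate 2. The third, 11296 bp downstream in CERKL, was called in 4 degron libraries, at 3.59 to 4.95.

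NEUROG3 (chromosome 10, 69571485 to 69573422, minus strand) encodes the factor that starts the enteroendocrine programme. It had 3 degron regions, all upstream and all weak. The nearest, 912 bp from the gene, was called at 4.16 in AID_aux replicate 1 only, the next at 3.91 in AID_ctrl replicate 1 only, and the third at 3.91 in that library and 4.37 in AID_aux replicate 2. No region at NEUROG3 was called by both replicates of any group.

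INSM1 (chromosome 20, 20368104 to 20370949) encodes a zinc finger factor of endocrine differentiation. It had 1 degron region, 6918 bp from the gene in CFAP61, called in all 10 libraries at 8.99 and 7.94, 12.77 and 11.36, and 9.43 and 8.31. A peak inside the INSM1 body was called in WT replicate 2 only.

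PAX4 (chromosome 7, 127610292 to 127618142, minus strand) encodes a paired-box factor that helps set endocrine subtypes. It had 12 degron regions. The strongest, 46530 bp downstream, was called in all 10 libraries at 14.90 and 13.94, 16.10 and 12.11, and 12.52 and 11.61. A region 33248 bp upstream in SND1, also called in all 10, was higher in replicate 2 of each degron group. Its values there were 14.08 in AID_ctrl, 13.51 in AID_aux and 11.79 in AID_wash. By −log10 p it was above the first in every degron library, between the 97.3 and 99.3 percentile. The region gained after auxin, 23604 bp downstream at chr7:127586374-127586688, was called in no AID_ctrl library, at 3.27 and 3.52 in AID_aux, and at 3.08 in AID_wash replicate 2. Both KO libraries called it and no WT library did. The region inside the gene body was called at 3.76 in AID_ctrl replicate 1 and 4.53 in AID_aux replicate 1, and in no WT or KO library.

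Across the distance limit stood a GCG and an NTS region, with their nearer ends 49285 and 49371 bp from the genes. Just outside stood a region 50438 bp from CHGA and another 51883 bp from PYY, at enrichments of 9.25 to 13.05 and 12.08 to 14.83. All 4 were called by 6 of 6 degron libraries, with peaks on either side of the limit counted. At GCG, AID_wash replicate 2 had no peak over the KO window chr2:162092958-162093581, inside the limit.

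In the knockout comparison, KO libraries called 73 and 64 of the 89 regions and WT libraries 42 and 32. Lost were 2 regions, gained 23, and retained 21 (2.25%, 25.8% and 23.6%), against 1.24%, 19.5% and 31.9% of all 157584 regions. The WT and KO lists hold windows of 500 bp with no enrichment, so only calls can be given. KO lists were longer over the whole genome, at 65.2 and 58.1 Mb of covered sequence against 46.4 and 33.0 Mb in WT, and the part of this in the gains was not tested. With no test, nothing particular to these genes is read from the higher share of gains. Leaving out WT replicate 1 gave 39 gained and 10 lost regions, and leaving out KO replicate 2 gave 35 gained.

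Gained regions were found at 8 of the 10 genes: 5 at CCK, 4 at CHGA, 4 at PYY, 3 at GCG, 2 each at NTS, SST and PAX4, and 1 at NEUROD1. NEUROG3 and INSM1 had none. Of the 40 other enteroendocrine genes, 34 also had a region gained in KO, and 19.5% of all regions were gained. At CCK, 1 lay inside the gene body (chr3:42262528-42263070, called by no degron or WT library) and another at chr3:42299912-42300450, over the region gained after auxin. The other 3 CCK windows were chr3:42298305-42298882, 32120 bp upstream, and a pair in TRAK1, chr3:42210743-42211253 and chr3:42213211-42213852, 46573 and 43974 bp downstream. At CHGA, 2 of the 4 lay in the gene body, as described above, and 2 in ITPK1, 37887 and 47527 bp downstream. At NTS, both lay upstream, over the regions 1486 and 6802 bp from the gene.

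At PYY, 3 gained windows lay downstream, 11639 bp away in PPY, 23577 bp away, and 46255 bp away in MPP2, and 1 lay 36919 bp upstream in LSM12. At GCG, 1 lay 30558 bp downstream, and 2 lay upstream, 11133 bp away and 44293 bp away in FAP. The SST windows lay 7103 bp downstream and 43090 bp upstream, the latter beside a retained window in RTP2. The PAX4 windows lay 28052 bp downstream in GCC1 and 23500 bp downstream, over the region gained after auxin. The NEUROD1 window lay 34458 bp upstream, over its strongest degron region. Of these windows, the GCG ones 30558 bp downstream and 44293 bp upstream, and at CHGA the one 47527 bp downstream, overlapped no peak in any degron library. So did 3 of the 5 at CCK.

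The 2 lost regions were at CCK and NEUROD1. At CCK the window chr3:42256247-42256832 was called in both WT and neither KO library, yet it lies inside a degron region whose remaining part both KO libraries called. At NEUROD1 the window chr2:181656457-181657014, 11281 bp downstream in CERKL, was called in both WT and no KO library, and in 4 of 6 degron libraries. WT replicate 2 called 0 of the 11 regions at GCG.

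The degron and knockout comparisons share no library, but their lists differ in format and length, so they are only set side by side. Of the 23 regions gained in KO, 6 were called by both AID_ctrl libraries (26.1%, against 23.6% of all gained regions), 1 by every degron library (4.35%, against 10.5%) and 6 by none (26.1%, against 41.1%). Of the 21 retained regions, 20 were called by every degron library (95.2%, against 90.7% of all retained regions). The other way round, both regions gained after auxin were called in both KO and neither WT library, as were 37.1% of all 2974 regions gained after auxin and 7.18% of those retained. All 4 WT and KO libraries called 67.5% of all regions retained after auxin and 7.57% of those gained. The WT lists were shorter, and the part of this in the shares was not tested. Of the 2 regions lost after auxin, 1 was called in both KO and neither WT library (14.9% of all lost regions), and the other in none of the 4 (28.8%).

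The wider list of 40 other enteroendocrine genes gave 323 regions in the auxin comparison, of which 6 were lost (1.86%) and 12 gained (3.72%). Over all regions the shares were 2.36% and 2.58%. After the washout, against AID_aux, 8 of 311 were lost (2.57%) and 5 gained (1.61%), where 3.48% and 1.21% of all regions were. Against AID_ctrl, 9 of 307 were lost (2.93%) and 2 gained (0.651%), where 2.67% and 0.685% of all regions were. In KO, 5 of 417 were lost (1.2%) and 84 gained (20.1%), where 1.24% and 19.5% of all regions were. The neurotensin receptor gene NTSR1 and the prohormone convertase gene PCSK2 gained 2 regions each after auxin, of 19 and 11 degron regions, more than any other gene of the list. In KO, 7 of 26 regions at NTSR1 and 7 of 24 at the factor gene ST18 were gained, where 19.5% of all regions were. At VGF, 2 of 21 were lost. These genes were picked as the highest of the 40, so nothing particular to them is read from their counts.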

How the data were processed

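ATAC-seq libraries were made by the Omni-ATAC method from 50000 cells and read as 150-nt pairs, per the labels' protocols. Per the submitters' processing notes, the tools were MACS2 2.1.1, Bowtie2 2.4.2, Picard and Trim Galore 0.6.10, and the build was hg38, with no settings given. For the degron line the authors deposited peak lists with a score, a fold enrichment (a ratio) and −log10 p-values and q-values, per the file contents, and for WT and KO lists of 500 bp windows without them. No read counts were used, so the depth is unknown.

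Using chromosomes 1 to 22 and X, overlapping peaks were joined over the 6 degron and, separately, the 4 WT and KO libraries, and a library called a region when a peak overlapped it by at least 1 bp. The degron lists hold 154150 to 198493 peaks, and the WT and KO lists 65939 to 130311. Gene bodies and promoter sequences came from RefSeq (GRCh38.p14). All 10 genes were matched in the gene table and 9 in the promoter table. At each gene the text names every region lost or gained, the region nearest a gene end and the region of highest enrichment. The members, the other lists (40 enteroendocrine genes and markers of colon epithelium, blood, fibroblast and endothelium, and neuron) and the rules were chosen with earlier results of these data known. The counting rule was checked on simulated data in which replicates always called the same planted regions. That check does not bear on weak peaks or on replicates that disagree. Alternatives were other flanks (25 and 100 kb), stricter overlap, other merging, stronger peaks, lists of equal length and leaving out each library. Python 3.11.15, pandas 2.3.3, NumPy 2.4.6 and matplotlib 3.10.9 were used.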

Additional observations from a re-analysis of the deposited data

Results flagged for a closer look

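The NTS region 1486 bp upstream of the gene was called by 2 more libraries in AID_ctrl than in AID_aux and by 2 more in KO than in WT. The calls thus differed in opposite directions in the 2 pairs. Of all regions lost after auxin, 14.9% were likewise called in both KO and neither WT library. KO lists also covered more sequence, 65.2 and 58.1 Mb against 46.4 and 33.0 Mb in WT. The difference between the 2 contrasts was not tested. By −log10 p the region lay low in the AID_ctrl lists, at 7.38 and 6.38 (the 19.9 and 13.9 percentile), where the lowest value kept was 5.0. Its enrichment there was 4.75 and 4.48.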

How the results depend on the processing

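The counts at these genes are small, and many depended on the processing. Of 58 values under other settings, 26 lay within 1.5 times the reported count and 32 did not. With a flank of 25 kb, 1 region was gained after auxin, 0 after washout against AID_ctrl and 10 in KO. With 100 kb, 5 were gained after auxin, 7 lost after washout against AID_aux, 6 lost against AID_ctrl, and 44 gained in KO. A wider flank takes in more regions, so a count can only rise with it, by construction. The counts under other settings are given without the share of all regions in the same setting. With 50% of a region to be covered, 5 were lost after auxin, 3 lost and 2 gained after washout against AID_aux, and 4 lost against AID_ctrl. Merging all 10 libraries left 1 lost in KO. With fixed windows of 500 bp, 4 were lost and 0 gained after auxin, 4 lost against AID_aux, 9 lost and 0 gained against AID_ctrl, and 5 lost in KO. With a −log10 p of at least 10, 0 were lost after auxin. After washout 2 were lost and 0 gained against AID_ctrl, with 0 gained against AID_aux. When the calling libraries had to hold the region in the stronger 50% of their lists, all 6 degron counts were 0. With lists of equal length, 1 was lost after auxin. After washout 0 were lost and 2 gained against AID_ctrl, with 2 gained against AID_aux. In the last 3 settings the NTS losses after auxin were 0, and NTS gained 1 region after auxin with a −log10 p of at least 10, with lists of equal length and without AID_ctrl replicate 2.

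Leaving out each library in turn gave 2 to 7 lost and 3 to 7 gained after auxin. After washout it gave 3 to 8 lost and 1 to 5 gained against AID_aux, with 5 gained without AID_aux replicate 1, and 3 to 7 lost and 1 to 4 gained against AID_ctrl, with 4 gained without either AID_ctrl library or AID_wash replicate 1. In KO it gave 2 to 10 lost and 23 to 39 gained, both highest without WT replicate 1. A region then needs only 1 library in that group, which raises counts by construction. No paired analysis was possible because the results are counts of called regions and come from no test. Settings by peak strength could not be applied to WT and KO, whose lists carry none. Without read counts, a region missing from a list cannot be told apart from a peak just under the threshold, which bears most on weak peaks such as the one across the NTS start site.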
